A study of Mus musculus with 24 samples.

Results

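A set of 58 genes of mouse chromosome 15 was followed through 21 thymic lymphomas and 3 samples of normal thymus, out of 21878 gene symbols counted. The genes were taken by name, as listed rows of the count table, and most serve basic cell functions (translation, RNA processing, transcription, chromosome maintenance, protein turnover) or signalling. The list was chosen by values of these same data: log2(CPM + 0.5) in each library against the thymus mean, over all lymphomas and by Ikzf1 mutation set, where CPM is counts scaled to 1e+06 per library and by TMM, a between-library normalization. All comparisons with thymus are therefore given as descriptions. The lymphomas were raised in female B6C3F1 mice, a hybrid strain, by whole-body carbon ions given in 4 weekly doses of 1.6 Gy from 4 to 5 weeks of age. Going by the columns of the 2 filtered tables that the authors made, 11 of the lymphomas had a mutation of Ikzf1, the gene of the lymphoid transcription factor Ikaros, and 10 did not. How the mutations were called is not given in the sources used. The 3 normal thymus samples come from the same strain and sex, bear the same treatment label, and carry the mark 7W in their titles, which the labels leave unexplained. Lymphoma cells or thymocytes were put into suspension before RNA was extracted. Lymphomas are called by their library numbers, and the thymus libraries are numbered 1 to 3.

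Chromosome 15 carries Myc, and gain of a whole extra copy of it is a familiar finding in mouse T-cell lymphoma. The genes described here are mostly needed by every cell, so their RNA levels in a tumour can follow both the number of gene copies and the control of each gene. DNA copy number was not measured in these data. In RNA from a mass of cells, fewer cells of a type and less RNA per cell cannot be told apart.

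Total counts were 15 to 36.6 M per library (M is 1e+06) in the lymphomas (18.4 to 36.6 in the mutated and 15 to 32.2 in the unmutated set) and 24.5 to 27.5 M in thymus. All libraries bear 1 batch date. Whether every lymphoma arose in a different animal is left unsaid in the labels. The p-values thus reflect the spread among these libraries, which may be technical in part. Summed T-lineage markers (8 genes, such as Cd3e and Lck) were at 4180 to 6610 CPM in the lymphomas and 7790 to 9060 CPM in thymus. Both kinds of sample thus carried T-cell RNA, with every lymphoma sum below every thymus sum. Of the 58 genes, 49 had 10 CPM or more in every library. The other 9 were Zhx1, Skp2, Atad2, Vdr, Lima1, Ptk2, Ndrg1, Cbx7 and Trib1, so the name housekeeping does not hold for all members. Zhx1, a zinc-finger and homeobox repressor, and Skp2, the F-box protein that marks p27 for destruction, had 10 counts or fewer in every library. They did not pass the filter on low counts, which left 56 members among 13121 tested genes. Why such genes gave so few counts was not tested. Per unit of gene length, Rpl8 had the highest mean level in both tissues (5018 TPM in the lymphomas and 3656 TPM in thymus), where TPM is the length-scaled share of transcripts. Pabpc1 (2755 TPM in the lymphomas and 1139 TPM in thymus) came next in the lymphomas, and Tuba1b (1378 TPM in the lymphomas and 1145 TPM in thymus) in thymus.

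RefSeq promoter windows (GRCm38.p6) were available for 23 of the 58 genes, and 5 are printed because the results turn on these genes: Cbx5 and Hnrnpa1 start head to head, 616 bases apart in the GENCODE annotation, Rbx1 lay below thymus in some lymphomas and above it in others, and Drosha and Hdac7 lay to one side of thymus in all 21. Each is the 250 bases before the RefSeq start, 5′ to 3′ on the gene's strand. The RefSeq starts of Cbx5 and Hnrnpa1 lie 36 and 35 bases from their GENCODE starts. The windows are chr15:103239853-103240102 on the minus strand (Cbx5), chr15:103240147-103240396 on the plus strand (Hnrnpa1), chr15:81466066-81466315 on the plus strand (Rbx1), chr15:12824565-12824814 on the plus strand (Drosha) and chr15:97844503-97844752 on the minus strand (Hdac7). Capitals mark matches, on either strand, to the E-box CACGTG that Myc and Max bind, the GC box GGGCGG of Sp1, the Ikaros core TGGGAA, the CCAAT box, the TATA box TATAAA and the cyclic AMP response element TGACGTCA. No matches overlap in these 5 windows.
Cbx5: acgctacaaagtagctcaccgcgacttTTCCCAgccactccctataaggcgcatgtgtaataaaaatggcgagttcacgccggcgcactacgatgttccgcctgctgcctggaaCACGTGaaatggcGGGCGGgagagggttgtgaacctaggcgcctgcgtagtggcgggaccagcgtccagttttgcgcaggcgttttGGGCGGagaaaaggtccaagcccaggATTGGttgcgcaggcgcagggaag
Hnrnpa1: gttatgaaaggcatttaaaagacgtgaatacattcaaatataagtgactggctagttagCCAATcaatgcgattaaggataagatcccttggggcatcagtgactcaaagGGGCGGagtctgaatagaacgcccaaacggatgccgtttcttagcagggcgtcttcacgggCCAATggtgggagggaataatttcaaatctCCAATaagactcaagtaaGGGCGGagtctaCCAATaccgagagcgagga
Rbx1: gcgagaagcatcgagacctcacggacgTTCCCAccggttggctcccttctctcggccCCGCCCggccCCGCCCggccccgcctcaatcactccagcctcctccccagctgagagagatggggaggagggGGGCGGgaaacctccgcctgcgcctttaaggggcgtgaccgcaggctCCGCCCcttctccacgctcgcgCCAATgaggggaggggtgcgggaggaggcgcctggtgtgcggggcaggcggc
Drosha: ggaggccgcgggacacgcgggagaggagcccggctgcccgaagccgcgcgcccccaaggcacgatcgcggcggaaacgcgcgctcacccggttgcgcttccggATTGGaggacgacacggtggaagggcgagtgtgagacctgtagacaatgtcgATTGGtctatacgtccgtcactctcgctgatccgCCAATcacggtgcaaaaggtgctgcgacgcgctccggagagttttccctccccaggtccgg
Hdac7: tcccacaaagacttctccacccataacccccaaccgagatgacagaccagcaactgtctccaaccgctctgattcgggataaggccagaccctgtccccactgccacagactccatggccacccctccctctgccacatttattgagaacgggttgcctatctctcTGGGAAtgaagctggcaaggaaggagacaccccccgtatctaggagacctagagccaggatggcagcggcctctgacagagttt

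The E-box stands in the Cbx5 window above and in that of Atf1, which makes 2 of 23 members, against 6.02% of all 32851 RefSeq windows of the same length. The GC box was found in 16 of 23 members and 32.7% of all windows. The Ikaros core stood in 8 members, Cbx5, Rbx1 and Hdac7 among them, and in 21.6% of all windows. The CCAAT box stood in 10 members and 33.8% of windows, with 4 copies in the Hnrnpa1 window and 3 in that of Drosha. The TATA box was found in Myh9 (12.4% of all windows) and the cyclic AMP response element in Golph3 (1.55%). The members' windows held a median of 23 CpG dinucleotides, against 6 in all windows, while the Hdac7 window held 6. These matches are letters in a window and say nothing of binding.

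Across the set, the median ratio to thymus of the 58 genes differed from lymphoma to lymphoma. It was lowest in lymphoma 10 (-0.11 on the log2 scale), had a middle value of 0.07 over the 21, and was highest in lymphoma 18 (0.64). In thymus libraries 1, 2 and 3, each set against the other two, the same median was 0.00, -0.02 and 0.05. It lay above all 3 thymus values in 13 lymphomas, 5 of the 11 mutated and 8 of the 10 unmutated. Between 20 genes (lymphoma 10) and 46 genes (lymphoma 12) stood above all 3 thymus libraries in a lymphoma, while 39.2 to 42.2% of all tested genes did so.

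**Figure D1:**
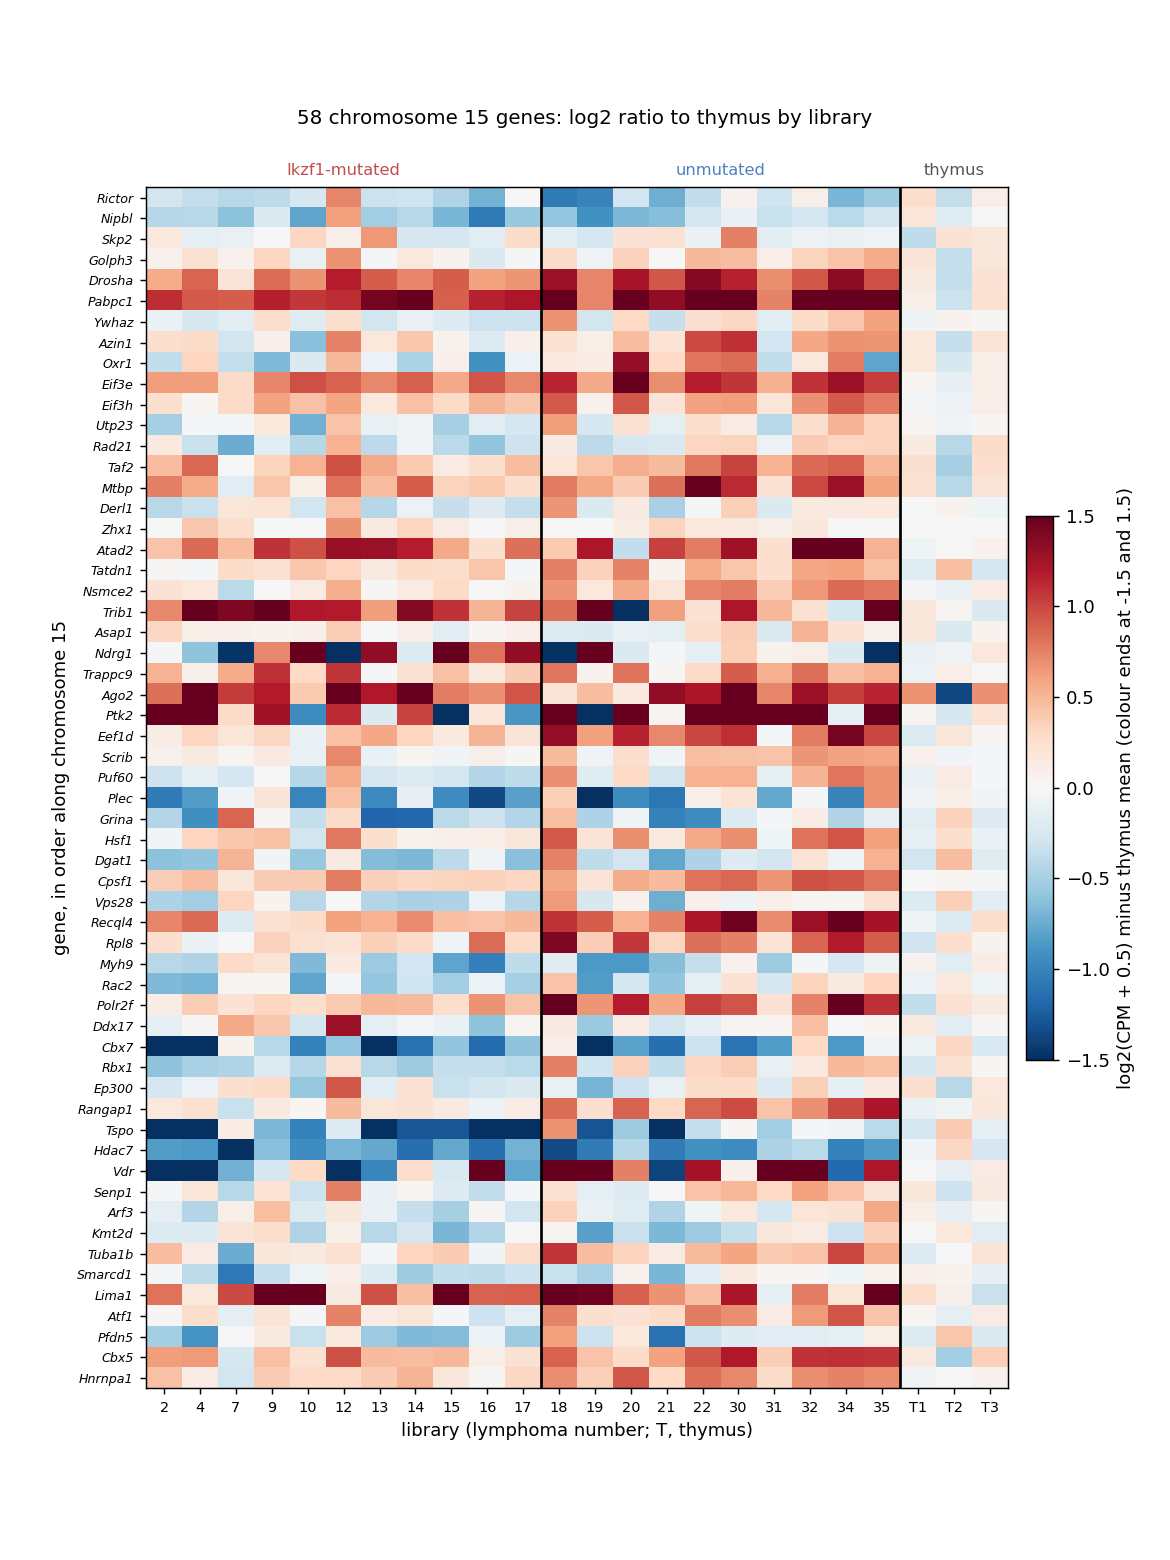
Log2 ratio to the thymus mean of each of the 58 genes (rows, in their order along chromosome 15) in each library (columns: mutated lymphomas, unmutated lymphomas, thymus); colours end at -1.5 and 1.5. Pabpc1, Eif3e, Drosha and Cpsf1 are above thymus in every lymphoma, Hdac7 is below in every lymphoma, and most other rows change colour between lymphomas.

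The 441 other tested genes of chromosome 15 were described in the same way. Their median ratio was the highest of all chromosomes in 9 lymphomas. In mutated lymphomas 9 and 12 it was 0.21 and 0.41, and in unmutated lymphomas 18, 20, 22, 30, 32, 34 and 35 it ran from 0.36 (lymphoma 34) to 0.60 (lymphoma 18). In the other 12 lymphomas it lay between -0.12 and 0.06, against -0.05 to 0.11 in thymus. The members' own median differed from it by at most 0.16 in any lymphoma. In lymphomas 9, 12, 18, 20, 22, 32 and 35 all 7 stretches of 10 Mb with at least 20 tested genes lay above every thymus library, and in lymphomas 30 and 34 it was 6 of 7. In the other 12 it was 1 to 4 of 7, so some stretches stood above thymus there too.

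**Figure D2:**
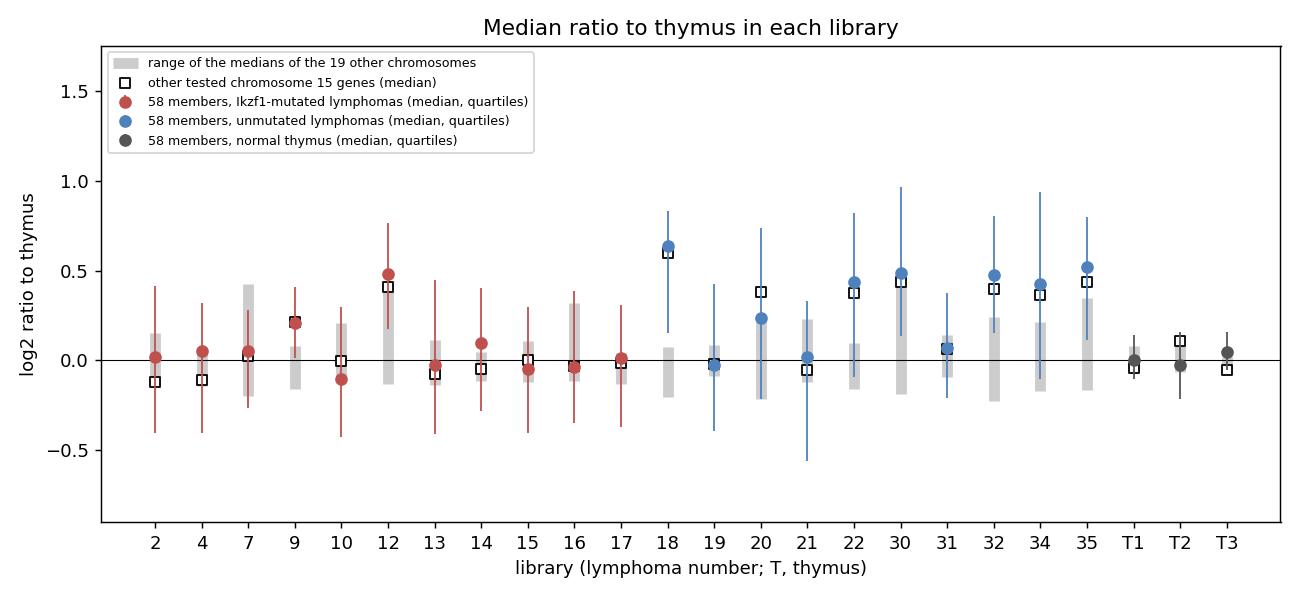
Median log2 ratio to thymus in each library (vertical axis): circles with quartile bars are the 58 genes, squares the 441 other tested genes of chromosome 15, and grey bars the range of the medians of the 19 other chromosomes. Circles and squares lie close together, and both stand above the grey bar in lymphomas 9, 12, 18, 20, 22, 30, 32, 34 and 35, the square narrowly in 12 and 30 and the circle narrowly in 20.

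Gene by gene, 4 members (Pabpc1, Eif3e, Drosha and Cpsf1) lay above all 3 thymus libraries in all 21 lymphomas, a state reached by 6.33% of all tested genes. Only Hdac7 lay below them in all 21, as did 7.93% of all tested genes. Another 39 members were above all thymus libraries in some lymphomas and below all of them in others. The share of all tested genes in this mixed state was not counted. In a single lymphoma, 39.2 to 42.2% of all tested genes were above and 40.7 to 45.6% below all thymus libraries. In the quasi-likelihood test of edgeR, adjusted by Benjamini-Hochberg over all tested genes, 11 members passed the 0.05 threshold as higher in the lymphomas and 1 as lower, while 30.8% of all tested genes passed (15.4% in each direction). The 11 were Pabpc1, Eif3e, Eif3h, Drosha, Cpsf1, Ago2, Cbx5, Taf2, Recql4, Mtbp and Atad2, and Hdac7 was the lower one. The higher count was 6, 4 and 6 when thymus library 1, 2 or 3 was left out, and 17 with DESeq2. Eif3h, Cbx5, Atad2, Recql4 and Mtbp lost the call whichever thymus library was left out, and Ago2 and Taf2 lost it without library 2. Pabpc1, Eif3e, Drosha, Cpsf1 and Hdac7 kept it in all 8 other settings. The list was drawn up with this contrast known, so nothing is read from these counts.

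The 5 translation genes had a positive median ratio throughout. Pabpc1, which encodes the cytoplasmic protein that coats poly(A) tails, had 2051 to 4788 CPM in the lymphomas (median 2845), against 1280, 1064 and 1371 CPM in thymus libraries 1, 2 and 3, the order kept for thymus values from here on. Every lymphoma was above every thymus library, with a median log2 ratio of 1.21. Eif3e and Eif3h, subunits of the initiation factor eIF3, had median log2 ratios of 0.89 and 0.44, and Eif3e was above thymus in all 21 lymphomas and Eif3h in 19. Eef1d, part of the exchange factor that recharges elongation factor eEF1A, had a median log2 ratio of 0.51 and was above thymus in 18. Rpl8, a protein of the large ribosomal subunit, had 1111 to 3142 CPM in the lymphomas (median 1516), against 1042, 1340 and 1221 CPM in thymus. It was above all thymus libraries in 18 lymphomas and below them in none. Rpl8 and Hnrnpa1 have processed copies elsewhere in the genome, and how the authors' counting shared such reads is not given in the sources used.

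Among the 7 RNA-processing genes, the microRNA-pathway nucleases Ago2 and Drosha had the highest median log2 ratios, 1.04 and 0.91. Drosha, which cuts primary microRNA transcripts in the nucleus, had 98.3 to 223 CPM in the lymphomas (median 161), against 91.1, 72.7 and 94.8 CPM in thymus, with no overlap. Ago2, the Argonaute protein that slices targets, had 47.9 to 170.4 CPM in the lymphomas (median 89.8), against 59.4, 22.8 and 59.6 CPM in thymus. Ago2 lay above thymus in 18 lymphomas, and thymus library 2 stood well below its companions. Cpsf1, a subunit of the complex that cleaves messenger RNA before polyadenylation, was above thymus in all 21 (median log2 ratio 0.47), and the splicing regulator Hnrnpa1 in 19 (0.38). Ddx17, an RNA helicase, had 731 to 2688 CPM in the lymphomas (median 1122), against 1186, 1029 and 1117 CPM in thymus, and was above thymus in 6 lymphomas and below in 7. Puf60, a splicing factor, had 200.4 to 475 CPM in the lymphomas (median 247), against 260, 289 and 271 CPM in thymus. It was above thymus in 8 lymphomas and below in 12, with a single lymphoma in between. Utp23, a factor of ribosomal RNA processing, was above thymus in 9 and below in 10.

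The 13 genes of transcription and chromatin lay on both sides of thymus. Hdac7, a class IIa histone deacetylase expressed in thymocytes, had 270.1 to 669 CPM in the lymphomas (median 489), against 868, 1022 and 788 CPM in thymus. Every lymphoma was below every thymus library, with a median log2 ratio of -0.86. Cbx7, a Polycomb protein that reads methylated histone H3, was below thymus in 17 lymphomas (median log2 ratio -0.84), Kmt2d, a histone H3 methyltransferase, in 13 (-0.25), and Smarcd1, a subunit of BAF remodellers, in 12 (-0.21). Ep300, a histone acetyltransferase, was above thymus in 7 and below in 4. Cbx5, which encodes a heterochromatin protein of the HP1 family, was above thymus in 17 (median log2 ratio 0.50), Taf2, a subunit of TFIID, in 19 (0.50), and Polr2f, a subunit shared by the RNA polymerases, in 20 (0.49). The heat-shock factor Hsf1 was above in 14 (0.32) and Atf1, which binds cyclic AMP response elements, in 15 (0.22). Atad2, a bromodomain ATPase, had 0.039 to 3.03 CPM in the lymphomas (median 0.759), against 0.179, 0.197 and 0.219 CPM in thymus, so its 20 lymphomas above thymus rest on few counts. Vdr, the vitamin D receptor, had 0.275 to 43.3 CPM and was above thymus in 10 and below in 10.

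**Figure D3:**
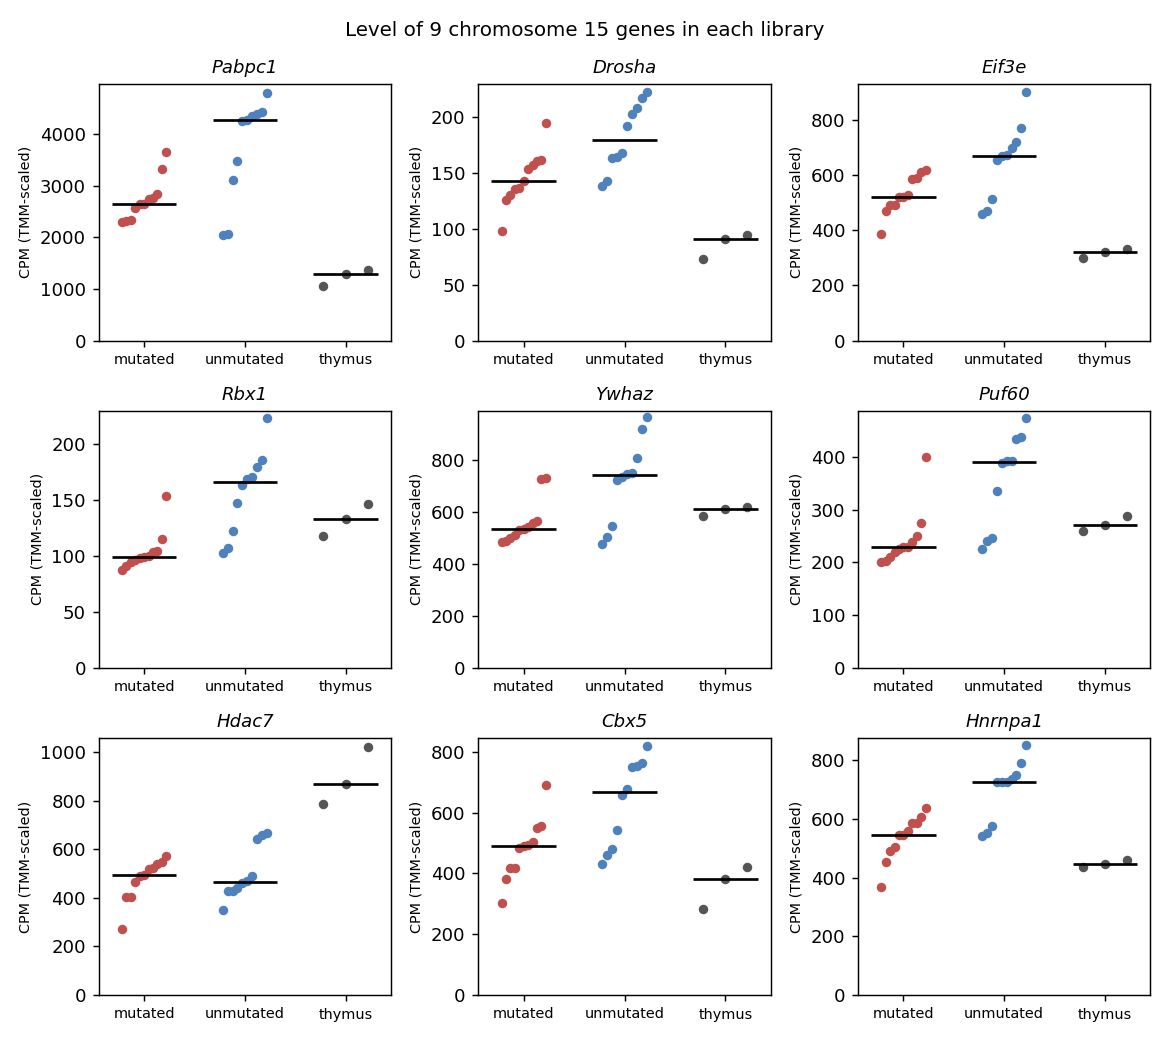
CPM scaled by TMM (vertical axes, from 0) of 9 genes in each mutated lymphoma, unmutated lymphoma and thymus library; points are libraries and lines are group medians. Pabpc1, Drosha and Eif3e lie above thymus and Hdac7 below it in all 21 lymphomas, while Rbx1, Ywhaz and Puf60 stand on both sides of thymus.

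In chromosome maintenance, the 2 cohesin genes had negative median ratios and the other 4 positive ones. Rad21, the kleisin subunit of cohesin, had 395 to 947 CPM in the lymphomas (median 586), against 704, 546 and 752 CPM in thymus, and was above thymus in 6 and below in 8. Nipbl, which loads cohesin onto DNA, had 194 to 624 CPM in the lymphomas (median 301), against 441, 373 and 408 CPM in thymus. It was below thymus in 19 lymphomas and above only in lymphoma 12. Recql4, a DNA helicase of replication and repair, had 26.1 to 109 CPM in the lymphomas (median 49.2), against 29.0, 27.1 and 33.8 CPM in thymus, and lay above thymus in 20. Mtbp, which acts in the firing of replication origins, was above in 19 (median log2 ratio 0.56). Nsmce2, the SUMO ligase of the SMC5-SMC6 complex, was above in 16 (0.21), and the nuclease gene Tatdn1 in 11 (0.33).

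Among 10 genes of protein turnover and trafficking, Rbx1, the RING subunit of cullin ubiquitin ligases, had 87.1 to 223 CPM in the lymphomas (median 107), against 118, 147 and 133 CPM in thymus. It was above thymus in 8 lymphomas and below in 12. Trappc9, a subunit of the TRAPP tethering complex, had 38.8 to 85.2 CPM in the lymphomas (median 54.4), against 37.9, 41.5 and 39.5 CPM in thymus, and was above in 18. Rangap1, the activator of the Ran GTPase in nuclear transport, had 189 to 558 CPM in the lymphomas (median 284), against 227, 230.3 and 257 CPM in thymus. It was above thymus in 18 and below in 2. Derl1, which helps to extract misfolded proteins from the endoplasmic reticulum, was above thymus in 9 and below in 11, and the small GTPase Arf3 was above in 8 and below in 11. The prefoldin subunit Pfdn5 was below in 13 and Vps28, of the endosomal sorting complex ESCRT-I, in 9. The Golgi protein Golph3 was above in 11 and the SUMO protease Senp1 in 10.

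The 12 genes of signalling and metabolism included some of the widest ranges. Ptk2, the focal adhesion kinase, had 0.433 to 90.4 CPM in the lymphomas (median 23.7), against 10.9, 9.48 and 11.7 CPM in thymus. It was above thymus in 14 lymphomas and below in 5, with the lowest value in lymphoma 19. Tspo, a protein of the outer mitochondrial membrane, had 24.6 to 168 CPM in the lymphomas (median 65.4), against 93.3, 125 and 98.2 CPM in thymus, and was below thymus in 16. Rac2, a small GTPase of blood cells, had 465 to 1123 CPM in the lymphomas (median 701), against 802, 893 and 811 CPM in thymus, and was above thymus in 5 and below in 13. Ndrg1, a stress-induced gene, ranged from 5.60 to 177 CPM in the lymphomas, and Trib1, a pseudokinase that recruits the COP1 ubiquitin ligase, from 7.72 to 127 CPM, with 19 lymphomas above thymus. Ywhaz, a 14-3-3 protein, was above thymus in 9 lymphomas and below in the other 12. Rictor, the defining subunit of mTORC2, was below in 17 and Grina in 14. Dgat1, the last enzyme of triglyceride synthesis, was below in 13, the antizyme inhibitor Azin1 above in 13, and the oxidation-resistance gene Oxr1 above in 10. Asap1, which acts on Arf GTPases, had the smallest spread of the tested members and was above thymus in 6.

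Of 5 cytoskeleton and polarity genes, Tuba1b, an alpha-tubulin, had 485 to 1711 CPM in the lymphomas (median 1025), against 743, 810.4 and 887 CPM in thymus, and was above thymus in 16. Its sequence is close to that of other alpha-tubulin genes of the chromosome, so its counts may hold some of theirs. Lima1, an actin-bundling protein, had 1.47 to 67.0 CPM in the lymphomas (median 3.51), against 1.94, 1.74 and 1.35 CPM in thymus, with the highest value in a mutated lymphoma. Plec, the cytoskeletal linker plectin, had 58.7 to 289 CPM in the lymphomas (median 103), against 177, 189 and 178 CPM in thymus, and was above thymus in 6 and below in 14. Myh9, a non-muscle myosin heavy chain, was below in 15, and the polarity gene Scrib above in 13. Of all 58 genes, 21 overlap another coding gene in GENCODE M21, Hdac7, Recql4 and Skp2 among them, and the sources used here do not give the strand of counting.

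How closely each gene followed its chromosome was described by subtracting, lymphoma by lymphoma, the median ratio of the 441 other chromosome 15 genes. The spread between lymphomas (SD of the log2 ratio, n = 21) became smaller in 48 of 56 tested members, or 85.7%. It became smaller in 328 of the 441 genes (74.4%) and in 2385 of 12130 genes of other chromosomes (19.7%). The members' median SD was 0.29 after subtraction and 0.38 before it. Ywhaz had the smallest spread afterwards, 0.13 against 0.33 before, and stayed between -0.30 and 0.17 of the chromosome's median. Rbx1 had an SD of 0.20 afterwards against 0.41 before, and Puf60 0.23 against 0.43. The spread grew in 8 members, Asap1, Hdac7, Ndrg1, Trib1, Rictor, Ago2, Taf2 and Atad2. Relative to the chromosome's median, Pabpc1, Eif3e, Eif3h and Drosha were above it in all 21 lymphomas and Hdac7 in none.

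**Figure D4:**
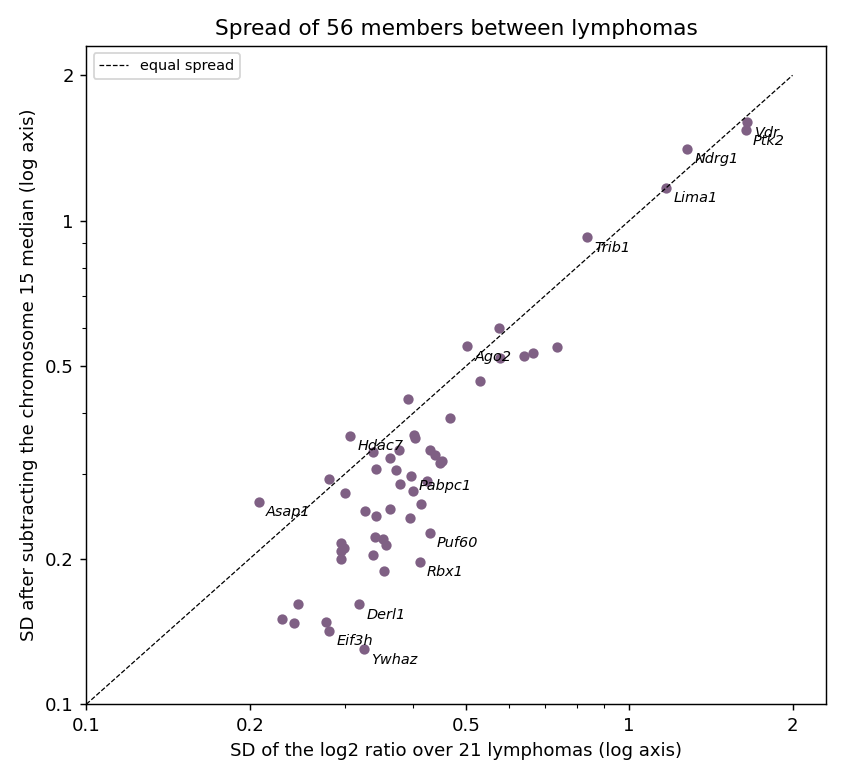
SD over the 21 lymphomas of the log2 ratio to thymus (horizontal, log axis) and of the same ratio after subtracting each lymphoma's median over the other chromosome 15 genes (vertical, log axis) for 56 tested members; points under the dashed line have a smaller spread after subtraction. Ywhaz falls to 0.13, while Hdac7, Asap1, Ndrg1 and Trib1 lie above the line.

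The mutated lymphomas were then set against the unmutated ones, a split that the design text names. None of the 56 tested members was higher in the mutated set and 13 (23.2%) were lower, while 5.38% of all tested genes passed (2.43% higher and 2.95% lower). The count was 7 on log2(TPM + 1), 9 without the filter on low counts, 9 without lymphoma 17, 22, 30, 32 or 34 and 21 without lymphoma 31. At an unadjusted p under 0.05, 30 of the 56 members were lower and 0 higher, and DESeq2 called 16 lower and 0 higher. Of all 13121 tested genes, 3029 had an unadjusted p under 0.05 in either direction. So did 176 of the 441 other chromosome 15 genes, and DESeq2 called 1269 genes over the whole table. Log2 fold changes, mutated over unmutated, were negative in 45 members, with a median of -0.30. Among the 441 other chromosome 15 genes, 4 were higher and 80 lower (median -0.27), with 40 lower on log2(TPM + 1) and 41 without lymphoma 34, 51 without 17 and 52 without 30, and 4.82% of genes on other chromosomes passed, 303 higher and 282 lower. The list was drawn up with both sets' values known, so these counts describe its genes and stand as no separate evidence. In the chromosome 15 medians by lymphoma, 2 mutated and 7 unmutated lymphomas had chromosome 15 as the highest chromosome.

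Translation and RNA processing gave 5 of the 13 lower genes. Eef1d had 179 to 287 CPM in mutated lymphomas (median 239), against 191 to 519.8 CPM in unmutated ones (median 386; log2 fold change -0.67, SE 0.13, adjusted p = 0.0104). Rpl8 had 1111 to 2135 CPM (median 1422) in mutated and 1378 to 3142 CPM (median 2149) in unmutated lymphomas (log2 fold change -0.57, adjusted p = 0.0212). In both genes the sets overlapped, with the highest values in the unmutated set. Hnrnpa1 had a median of 547 CPM in mutated and 727 CPM in unmutated lymphomas (log2 fold change -0.39, SE 0.09, adjusted p = 0.0236), and Puf60 had 229 CPM in mutated and 391 CPM in unmutated lymphomas (-0.55, SE 0.14, adjusted p = 0.0256). Cpsf1 had medians of 215 CPM in mutated and 281 CPM in unmutated lymphomas (log2 fold change -0.31, SE 0.08, adjusted p = 0.0318). Pabpc1, with medians of 2648 CPM in mutated and 4263 CPM in unmutated lymphomas, did not pass (adjusted p = 0.0669).

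**Figure D5:**
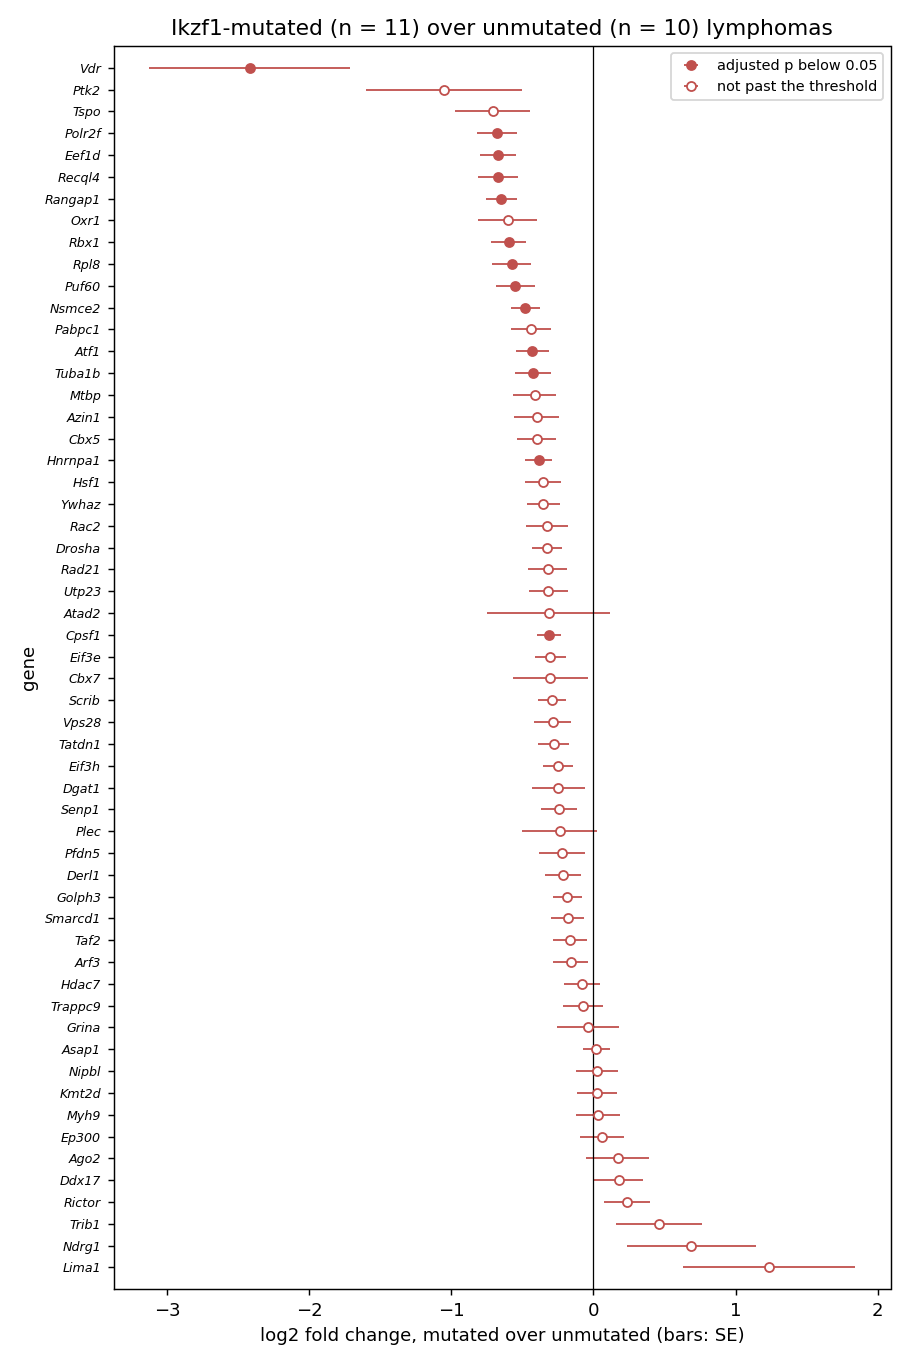
Log2 fold change, mutated (n = 11) over unmutated (n = 10) lymphomas, with SE bars, for the 56 tested members in order of size; filled points have an adjusted p below 0.05. All 13 filled points lie left of 0, and the 11 positive estimates, from Asap1 to Lima1, are open.

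Among transcription and maintenance genes, Polr2f had 43.8 to 64.5 CPM in mutated lymphomas (median 52.3), against 47.2 to 131 CPM in unmutated ones (median 80.5; log2 fold change -0.68, SE 0.14, adjusted p = 0.0128). Recql4 had 26.1 to 54.2 CPM (median 42.0) in mutated and 43.1 to 109 CPM (median 67.2) in unmutated lymphomas (log2 fold change -0.67, adjusted p = 0.0134). Nsmce2 had 33.1 to 64.6 CPM (median 47.9) in mutated and 49.2 to 79.7 CPM (median 70.1) in unmutated lymphomas (log2 fold change -0.48, adjusted p = 0.0134). All 3 had their lowest values in the mutated set, and the sets overlapped. Atf1 had medians of 93.4 CPM in mutated and 134 CPM in unmutated lymphomas (adjusted p = 0.0362). Vdr had medians of 1.02 CPM in mutated and 5.38 CPM in unmutated lymphomas, with 43.3 CPM in 1 unmutated lymphoma (log2 fold change -2.42, SE 0.71, adjusted p = 0.0464).

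Among genes of protein turnover and the cytoskeleton, Rangap1 had 189 to 332 CPM in mutated lymphomas (median 262), against 284 to 558 CPM in unmutated ones (median 429.7). Its adjusted p was the smallest of all members (0.0101, for a log2 fold change of -0.65 with an SE of 0.11). The sets overlapped only through mutated lymphoma 12, whose 332 CPM lay above the lowest unmutated values. Rbx1 had 87.1 to 154 CPM (median 99.2) in mutated and 103 to 223 CPM (median 166) in unmutated lymphomas (adjusted p = 0.0128, log2 fold change -0.60, SE 0.12). It was below thymus in 10 of 11 mutated and 2 of 10 unmutated lymphomas, and above it in 1 mutated and 7 unmutated lymphomas. Tuba1b had medians of 916 CPM in mutated and 1121 CPM in unmutated lymphomas (log2 fold change -0.43, adjusted p = 0.0485). No member of the signalling and metabolism group passed with edgeR, Ptk2 with a log2 fold change of -1.05 (SE 0.55, adjusted p = 0.254) included, while 5 of the 12 were lower at an unadjusted p under 0.05 and DESeq2 called 1. In no member did the 2 sets separate without overlap, and how many of all tested genes separate in this way was not counted.

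The calls of Rangap1, Eef1d, Polr2f, Rbx1, Nsmce2, Recql4 and Rpl8 were kept in all 27 other settings, including each lymphoma left out in turn. Hnrnpa1 kept its call in 26 of the 27, all but log2(TPM + 1). Puf60 kept its call in 25, with losses on log2(TPM + 1) and without lymphoma 34 (adjusted p up to 0.0623 over all settings). Cpsf1 kept 18 (up to 0.176), with losses on log2(TPM + 1), without the filter on low counts and without lymphoma 7, 17, 22, 30, 32, 34 or 35. Atf1 kept 13 (up to 0.101), with losses on log2(TPM + 1), without the filter, in the fit of the lymphomas only and without lymphoma 2, 7, 10, 15, 17, 18, 22, 30, 32, 34 or 35. Vdr kept 6 (up to 0.112) and Tuba1b 5 (up to 0.108). With single lymphomas left out, Vdr passed only without lymphoma 16, 21, 31 or 34, and Tuba1b only without 2, 15, 21 or 31. Myc, the proto-oncogene on the same chromosome, had medians of 309 CPM in mutated and 299.5 CPM in unmutated lymphomas (log2 fold change 0.05, SE 0.20, adjusted p = 0.904).

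Set against thymus in the model of 3 groups, 5 members were higher and 2 lower in the mutated lymphomas (26% of all tested genes passed). In the unmutated lymphomas 21 were higher and 1 lower (35.4% of all tested genes passed). The mutated counts were 3 or 4 higher and 1 lower when any 1 thymus library was left out. The 2 comparisons share the thymus libraries. Of the named members, Atf1 had median log2 ratios to thymus of 0.01 in the mutated and 0.53 in the unmutated set, Rad21 had -0.34 in the mutated and 0.23 in the unmutated set, Puf60 had -0.25 in the mutated and 0.52 in the unmutated set, and Hdac7 had -0.84 in the mutated and -0.93 in the unmutated set.

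Genes of the same complexes, or of related complexes and gene families, that lie elsewhere in the genome were not part of the list. Of 125 such genes tested, 28 were higher and 14 lower in the lymphomas than in thymus, 33.6% against 30.8% of all tested genes. The share is near the background. The lists below also hold partners on chromosome 15. Among 11 other eIF3 subunits 7 were higher (7 with DESeq2) and none lower, led by Eif3b on chromosome 5, with 401 to 1001 CPM in the lymphomas against 292 to 325 CPM in thymus (adjusted p = 0.000271; log2 fold change 1.05, SE 0.19). Among 15 other large-subunit ribosomal proteins 10 were higher and none lower, with Rpl3 (chromosome 15) at 448 to 946 CPM in the lymphomas and 254 to 302 CPM in thymus (adjusted p = 0.000116; log2 fold change 1.19, SE 0.20). Of 4 eEF1 genes 3 were higher, Eef1a1, Eef1g and Eef1b2. Of 6 other 14-3-3 genes, Ywhaq, Ywhab and Ywhag were higher and Sfn was lower. Among other HP1 and CBX genes, Cbx8, Cbx6 and Cbx1 were lower, in the direction of Cbx7 and not of Cbx5. The lymphoma medians of the genes named in these lists all lay outside the thymus range.

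The other partner lists held fewer calls against thymus. In the SCF list of 8, which also holds cullins of other ligases, Cul1 and Cks1b were higher. Fbxw7, a substrate receptor of the ligase that contains Rbx1, was lower (37.9 to 66.2 CPM in the lymphomas and 78.3 to 84.2 CPM in thymus; adjusted p = 3.1e-05, log2 fold change -0.79, SE 0.12). Of 10 cohesin partners Pds5a was higher and Esco1 lower, and of 8 BAF partners Smarcc1 was higher and Smarca4 and Smarcd2 lower. Of 8 genes of CPSF and related messenger RNA cleavage factors, Cpsf3 and Fip1l1 were higher and Cpsf7 lower. Xpo5, which exports microRNA precursors from the nucleus, was the higher one of 6 microRNA-pathway partners (log2 fold change 0.84, adjusted p = 0.00247). Polr2b was the higher one of 11 RNA polymerase II partners. Lower were Taf8 and Taf13 of 12 TFIID partners, Trappc4 and Trappc5 of 12 TRAPP partners, and Nsmce1 of 5 SMC5-SMC6 partners. None of 5 mTORC2 and 5 prefoldin partners passed with edgeR or DESeq2, with 1 in each list under an unadjusted p of 0.05.

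Between the sets, 9 of the 125 partners off chromosome 15 were lower in mutated lymphomas and none higher (7.2%). Of all tested genes 5.38% passed, 2.95% lower and 2.43% higher. At an unadjusted p under 0.05, 22 partners were lower and 3 higher, and DESeq2 called 12 lower and 2 higher. Over all 13121 tested genes, 3029 had an unadjusted p under 0.05 in either direction, and DESeq2 called 1269. On chromosome 15 itself, 3 of 7 tested partners were lower, Eif3d, Eif3l and Polr2k. Of 11 RNA polymerase II partners 4 were lower, Polr2d on chromosome 18 with medians of 55.7 CPM in mutated and 72.8 CPM in unmutated lymphomas (log2 fold change -0.52, SE 0.12, adjusted p = 0.0212), together with Polr2i, Polr2j and Polr2k. Eif3b had medians of 560 CPM in mutated and 701 CPM in unmutated lymphomas (adjusted p = 0.0217). In the SCF list Nedd8, the modifier that activates cullins, had medians of 145 CPM in mutated and 187 CPM in unmutated lymphomas (adjusted p = 0.0194), and Skp1a was lower as well. Pfdn1, Taf12 and Trappc1 were the lower genes of the prefoldin, TFIID and TRAPP lists. The sets overlapped in these genes.

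Markers of other cell types differed beside these results. Of the 8 T-lineage markers, 5 were lower in the lymphomas than in thymus and 0 higher. All 8 of their log2 fold changes were negative (median -0.87). Summed macrophage markers (12 genes) were at 310 to 1260 CPM in the lymphomas and 149 to 222 CPM in thymus, with 11 of 12 higher. Summed fibroblast markers (9 genes) were at 59.3 to 1300 CPM in the lymphomas and 12.2 to 16.2 CPM in thymus, with 8 of 9 higher. Thymic epithelial markers were at 0.949 to 10.7 CPM in the lymphomas and 23.5 to 61.0 CPM in thymus, and 6 of 7 tested were lower. Neutrophil markers were at 0.229 to 37.3 CPM in the lymphomas and 54.3 to 100 CPM in thymus, and 8 of 8 were lower. Natural killer markers were at 89.4 to 2720 CPM in the lymphomas and 122 to 165 CPM in thymus, with 1 of 6 higher and 5 lower. B-cell markers (1.67 to 187 CPM in the lymphomas and 40.9 to 68.3 CPM in thymus), endothelial markers (91.0 to 264 CPM in the lymphomas and 144 to 155 CPM in thymus, with Emcn at 0 in thymus) and erythroid markers (5.91 to 317 CPM in the lymphomas and 28.8 to 34.7 CPM in thymus) had no called gene with edgeR. At an unadjusted p under 0.05, and with DESeq2, 1 B-cell gene was lower and no endothelial or erythroid gene passed. Between the sets, Col1a2, Hbb-bs and Hbb-bt were higher in mutated lymphomas, where fibroblast sums were 106 to 1300 CPM against 59.3 to 395 CPM in unmutated ones. The fibroblast genes did not go one way, with log2 fold changes negative in 5 of 9 and positive in 4 (median -0.21). Of these 9, 2 were higher and 1 lower at an unadjusted p under 0.05, and DESeq2 called 1 higher and 0 lower. All 4 tested erythroid genes had an unadjusted p under 0.05, and DESeq2 called all 4 higher. Erythroid sums were 5.91 to 317 CPM in mutated lymphomas, against 10 to 48.8 CPM in unmutated ones. No marker of the other lists passed the threshold between the sets in edgeR. Neutrophil log2 fold changes were positive in 8 of 8 (median 1.64), with 5 under an unadjusted p of 0.05 and 0 called by DESeq2, and sums were 0.697 to 37.3 CPM in mutated lymphomas against 0.229 to 8.32 CPM in unmutated ones. Of 8 T-lineage genes, 3 were higher at an unadjusted p under 0.05 and 1 with DESeq2. Macrophage log2 fold changes were negative in 12 of 12 (median -0.25), with 2 under an unadjusted p of 0.05 and 0 called by DESeq2. At an unadjusted p under 0.05, 2 of 6 natural killer genes passed, 1 in each direction, and no B-cell, endothelial or thymic epithelial gene, and DESeq2 called 0 in these 4 lists. The part of these cells in the values of the 58 genes was not tested.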

How the data were processed

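Poly(A) RNA of 21 lymphomas and 3 normal thymus samples was measured by RNA-seq. Per the labels' protocols, extraction used Maxwell RSC and RNeasy kits. Per the submitters' processing notes, the tools included HTSeq 0.6.1, HISAT2 2.0.1 and cutadapt 1.9.1, with build GRCm38.p6. For every library the authors deposited raw whole-number counts by gene symbol, and a TPM table, which served for levels per length and 1 alternative. The sets were read from column names of the deposited filtered count tables, whose counts equal those of the whole table. A deposited CPM table for a comparison by Grb10 level was left aside.

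Tests on counts used edgeR 4.0.16 in R 4.3.3 (TMM, filterByExpr, glmQLFit, glmQLFTest, Benjamini-Hochberg adjustment over 13121 genes, threshold 0.05). Lymphomas were set against thymus in a model of 2 groups, and the sets against each other and thymus in 1 model of 3 groups. Each SE equals the size of the log2 fold change over the square root of F. Ratios to thymus are log2(CPM + 0.5) of TMM-scaled CPM minus the mean of the thymus libraries, or of the other 2 for a thymus library. Symbols were placed with GENCODE M21 (94.22%). In simulated counts, 200 genes were changed, by 2 or 4 fold, and each gene was drawn independently. There, 2-fold changes were found in 40.8% of cases (12960 genes, lymphomas against thymus) and 60.2% (12950 genes, between the sets), and 3.6 and 6.8% of calls were false. More genes than 200 passed in the data themselves, so these rates may differ there. Library pairs differed beyond sampling noise (chi-square per degree of freedom of 48.9 to 339 for lymphoma pairs and 9.54 to 33.7 for thymus pairs).

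Alternatives were DESeq2 1.42.0 (its test, and its size factors), limma 3.58.1 (voom, and log2(TPM + 1)), no filter on low counts, other pseudocounts, lymphomas only, and each library left out. The members, roles and partner lists were chosen with earlier results of these data known. Full values are given in each role for the members with the highest ratio, the lowest ratio and the highest level. All members past the threshold between the sets are named, and of each partner list up to 3 with the smallest p. Cbx1, Sfn and Polr2i were named after their values were seen. Results for some further genes of these lists are left out of the text.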

Additional observations from a re-analysis of the deposited data

Results flagged for a closer look

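In the unmutated set (n = 10), 3 of 60 examined measures had 1 lymphoma set apart from the rest, by a gap of Dixon's 95% size within the group's range, which chance alone gives in about 1 of 20 groups. Ptk2 had a log2 ratio to thymus of -3.58 in lymphoma 19, with the next lymphoma at -0.13. Skp2 had 0.76 in lymphoma 30, with the next at 0.22, and Zhx1 had 0.34 in lymphoma 21, with the next at 0.17. Skp2 and Zhx1 had 10 counts or fewer in every library, so their ratios rest on a few reads.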

How the results depend on the processing

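No member past the threshold reversed the direction of its fold change under another setting. Counts and median ratios were compared by size only, so a change of sign in them was not looked for. No paired analysis was possible because the labels pair no lymphoma with a thymus sample or with another lymphoma. Of the values of single genes, and of the members' median in single lymphomas, under other settings, 1072 kept their call or value, 119 lost the call and 4 moved. Those that moved were 2 genes with a pseudocount of 0.1 and the median of 2 lymphomas on log2(TPM + 0.5). Against thymus, the count of higher members was 17 with DESeq2 (11 in the edgeR fit), and 4 to 6 with a thymus library left out. The count of lower members was 2 with limma-voom, against 1. Between the sets, the count of lower members was 7 on log2(TPM + 1), against 13, and 9 to 21 with a lymphoma left out (21 without lymphoma 31). That of other chromosome 15 genes was 40 on log2(TPM + 1), against 80, and 41 to 101 with a lymphoma left out, with 41 without lymphoma 34, 51 without 17 and 52 without 30. In the mutated set against thymus, lower members numbered 1 with DESeq2 size factors and 1 without any thymus library, against 2, and higher members 3 to 4, against 5. In the unmutated set higher members numbered 14 to 16, against 21. The cause of these shifts was not tested, beyond the fewer samples in each fit that left one out.

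Over the whole table, genes called between the sets numbered 1269 with DESeq2, 388 in a fit of the lymphomas only, and 301 to 1221 with a lymphoma left out, against 706; the count was lowest without lymphoma 34 and highest without lymphoma 31, and it also shifted without lymphoma 17, 18, 22, 30 or 35. With a thymus library left out, calls numbered 1929 to 2545 for all lymphomas (against 4044), 1441 to 2128 for the mutated set (against 3412) and 2856 to 3284 for the unmutated set (against 4642). The lymphomas whose median over the other chromosome 15 genes lay above every thymus library numbered 9 to 15, with 15 without thymus library 2. The median over all genes moved by under 0.1 (log2) under each scaling. Only 3 thymus libraries set every ratio, and genes with few counts (Skp2, Zhx1, Atad2, Vdr, Lima1) have ratios of low precision.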
